A study of Mus musculus with 12 samples.

Results

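Weekly instillation of bacterial endotoxin into the mouse nose was compared with vehicle in whole lung, using the 3 LPS arrays and the 3 PBS arrays of a series of 12. Arrays were assigned by the group named in their titles, and every probe that was not a control spot entered. The mice were FVB/N females according to the labels (strain FVB/NJ), 7 weeks old at the start. Lipopolysaccharide (LPS), the endotoxin of Gram-negative bacteria, was instilled intranasally at 5 µg per mouse each week for 16 weeks. The phosphate-buffered saline (PBS) group carries a weekly regimen of 16 weeks in its labels, with no route given. Both other groups received the tobacco nitrosamine NNK, given intraperitoneally at 3 mg per mouse during the first 4 weeks: alone in the NNK group, together with the endotoxin course in the LPS/NNK group. Animals of all groups were killed 1 week after their last treatment. Total RNA of lung tissue was labelled with Cy3 and hybridised to 1-colour Agilent arrays. No label ties replicate numbers to separate animals, so p-values measure the spread between these samples. Values below are log2 signals relative to the 75th percentile of their own array, and each difference is a mean LPS value minus a mean PBS value with its standard error from the fit (3 arrays a group). An item is a gene, read by its brightest probe, or a bare sequence identifier that the tables used here do not name. Of 41137 probes, 24355 (59.2%) carry a symbol, for 17009 genes. After a filter on dim probes 21856 items were tested, 13648 of them named genes. A called item has an adjusted p under 0.05 in limma.

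Endotoxin in the airways is carried by the binding protein Lbp to Cd14 and the Tlr4 and Ly96 receptor pair, and the adaptors Myd88 and Ticam1 pass the signal to NF-kB and interferon regulatory factors. Repeated exposure is known to bring lymphocytes, plasma cells and macrophages into the lung, and lymphoid aggregates with their own homing chemokines can form along the bronchi. Plasma cells there secrete polymeric immunoglobulin A, which the epithelial receptor Pigr carries to the airway surface.

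The PBS arrays differed from the LPS arrays in measures other than gene content. The 75th percentile of the processed signal was 699 to 984 on the PBS arrays and 266 to 487 on the LPS arrays. Spots well above background made up 70.2% to 73.1% of spots in PBS and 55.6% to 57.3% in LPS, while the spike-in controls had a lower median log2 signal in PBS (9.05 to 10.1) than in LPS (10.5 to 11.4). Array correlations were 0.978 to 0.984 within PBS, 0.968 to 0.981 within LPS and 0.883 to 0.915 between them. On the first principal component of all 12 arrays (52.3% of the variance), PBS arrays lay between -143 and -119 and LPS arrays between 48.1 and 68.6. Each of the 6 arrays was on a slide of its own, each group held its own slide positions, and PBS array 2 was the 1 array of a separate scan, so position and group cannot be told apart. By the leading characters of the slide barcodes, PBS array 2 was of the same slide series as the LPS arrays, and PBS arrays 1 and 3 were of another. Y-linked Ddx3y was above background on PBS arrays 1 and 2 (0.83 and 1.0) and at background on PBS array 3 (-8.10) and all LPS arrays, where the labels call every mouse female. Xist, the X-inactivation transcript, read -8.43, -8.41 and -1.69 on the PBS arrays and -3.18, -2.55 and -2.40 on the LPS arrays. PBS arrays 1 and 2 therefore go against the label on sex, and a fit with PBS array 3 as the only vehicle array was made as an alternative. In that fit a part of the 186 called named genes kept their sign but lost their call, and Xist turned to -1.02. The lung label itself was borne out on all 6 arrays: surfactant protein Sftpc read 8.41 to 10.1, club cell secretoglobin Scgb1a1 7.68 to 8.27, alveolar type 1 receptor Ager 4.63 to 5.68 and endothelial cadherin Cdh5 4.03 to 5.44.

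Differences also ran with brightness. The median difference was -0.64 in the dimmest of 4 equal bins of items and 0.51 in the brightest, against -0.061 over all items. In the dimmest bin 13.9% of items were called higher and 42.3% lower, and in the brightest 42.6% and 12.8%. The part of this trend in the results below was not tested beyond the quantile and cyclic loess normalizations and a normexp background correction, which moves the median of all items to 0.34. Statements therefore lean on bright items: those well above background on all 6 arrays with a mean at or above the median of items tested, 10928 in number, whose median difference was 0.29.

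**Figure D1:**
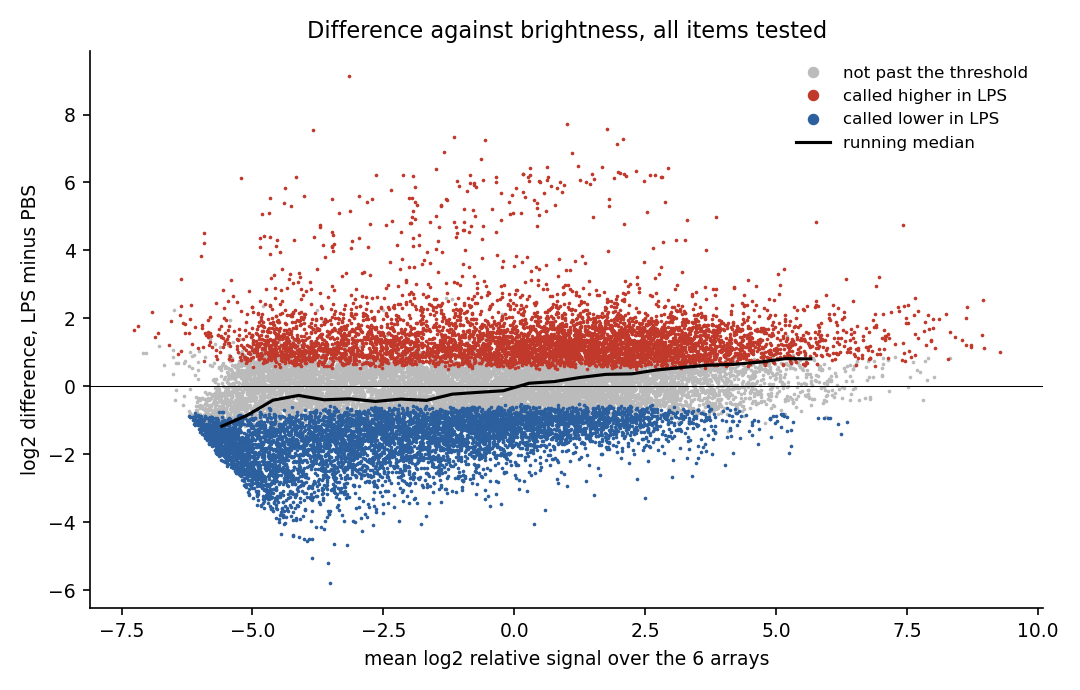
Log2 difference between LPS and PBS (vertical axis) against the mean log2 relative signal over the 6 arrays (horizontal axis), 1 point for each of the 21856 items, red for called higher, blue for called lower and grey for the rest; the black line is a running median. The line climbs from below 0 among dim items to above 0 among bright ones, where the medians of the outer bins were -0.64 and 0.51.

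Endotoxin-treated and vehicle lungs differed widely. Of the items tested, 12243 were called (56.0%), 5695 higher in LPS (26.1%) and 6548 lower (30.0%). By at least 2-fold, 4053 were called higher and 5169 lower. Among bright items 3847 were called higher (35.2%) and 2147 lower (19.6%). The share called higher among bright called items, 64.2%, was 48.7% after quantile and 48.7% after cyclic loess normalization. Arrays of the groups did not overlap in 13667 items (62.5%), so a lack of overlap is the usual case here and is given below only to describe a gene. With 3 arrays a group, an exact permutation test of 1 gene cannot go below p = 0.1. Of the items called lower, 2039 were not well above background on any LPS array, and of those called higher, 55 were not well above it on any PBS array. With PBS array 3 as the only vehicle array, 5691 items were called, 2841 higher and 2850 lower. On that footing the class II list gave 10 rises and 0 falls (median 1.63), complement 11 and 0 (1.42), monocyte and macrophage markers 20 and 2 (1.62) and T cell markers 8 and 0 (0.91). In whole lung, a rise can come from more cells of a type or from more RNA per cell, and these cannot be told apart.

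Among the 12 named genes that rose most were Derl3 and Jchain of plasma cells, the 3 chains of complement C1q, the chemokines Cxcl9 and Ccl19, and the neutrophil genes Cd177 and Ltf. Jchain, the joining chain of polymeric immunoglobulins, read 0.93, 0.38 and 2.76 on the PBS arrays and 5.97, 6.13 and 6.89 on the LPS arrays. It rose by 4.98 ± 0.48 (adjusted p = 9.99e-06), a 31.5-fold difference, and its lowest LPS array stood above its highest PBS array. Derl3, a factor of endoplasmic reticulum protein disposal that is abundant in secretory cells, read -2.49, -2.51 and -2.85 on the PBS arrays and 2.25, 2.76 and 2.37 on the LPS arrays, a rise of 5.08 ± 0.25 (adjusted p = 3.64e-07). Values within each group lay close together for Derl3, while PBS array 3 stood above its mates for Jchain. Cd177, a surface glycoprotein of neutrophils, read -3.00, -4.06 and -2.10 on the PBS arrays and 2.56, 2.74 and 1.24 on the LPS arrays, a rise of 5.23 ± 0.57 (adjusted p = 2.11e-05). Ltf, the iron-binding granule and secretory protein lactoferrin, read -0.095, -0.43 and 3.04 on the PBS arrays and 5.55, 6.70 and 4.96 on the LPS arrays, a rise of 4.90 ± 0.98 (adjusted p = 0.00111). PBS array 3 was the highest vehicle array for Ltf, and with that array alone as vehicle the difference was 2.70 (adjusted p = 0.104). Ccl19, the chemokine that draws Ccr7-bearing T cells and dendritic cells, read 1.64, -0.048 and 0.54 on the PBS arrays and 5.35, 4.91 and 4.66 on the LPS arrays, a rise of 4.26 ± 0.41 (adjusted p = 1.02e-05). All LPS values of Ccl19 were above all PBS values by more than the spread within either group. Gpr162, an orphan receptor, rose by 4.71 ± 0.30 (adjusted p = 1.69e-06), linker histone H1f5 by 4.34 ± 0.67 (adjusted p = 0.000227) and the class I-like H2-Q8 by 4.07 ± 0.50 (adjusted p = 4.88e-05). H2-Q8 has close relatives in the H2-Q cluster that its probe may also bind.

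**Figure D2:**
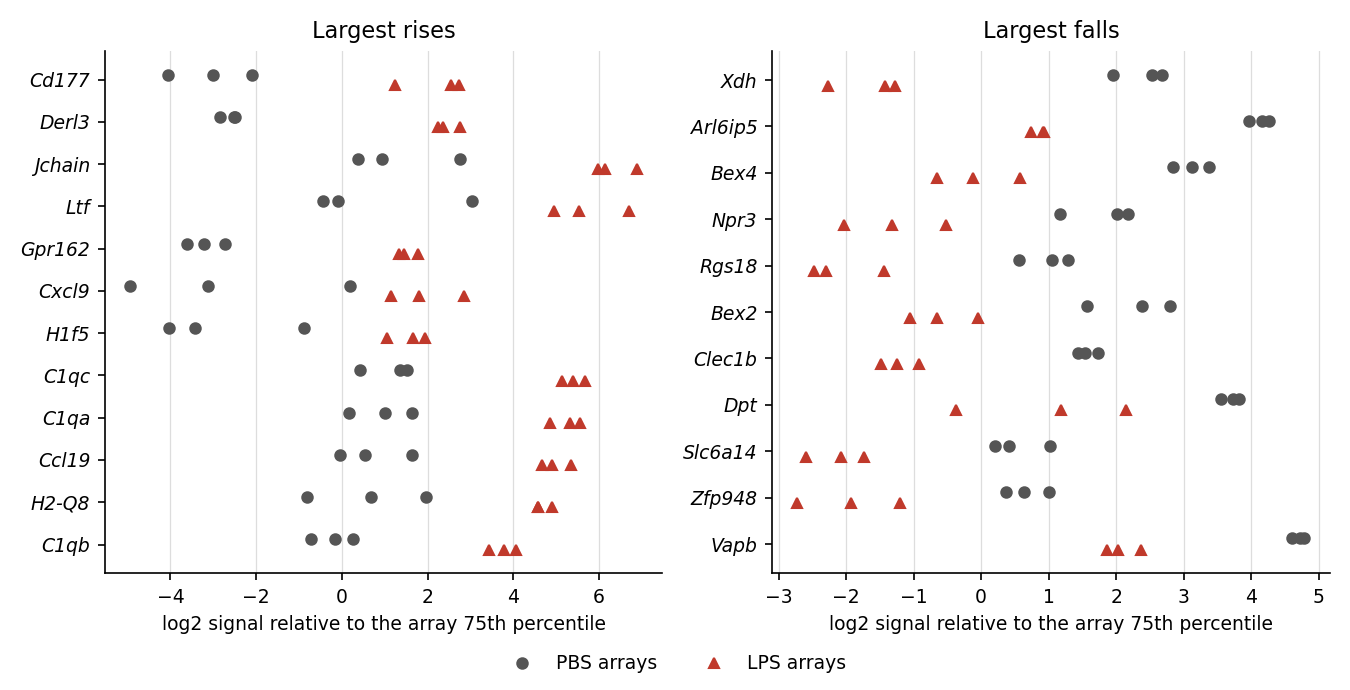
Log2 signal relative to the 75th percentile of each array (horizontal axis) for the 12 bright genes that rose most and 11 of those that fell most, with grey circles for the 3 PBS arrays and red triangles for the 3 LPS arrays. No circle overlaps a triangle of the same gene, and for Jchain the LPS arrays sit between 5.97 and 6.89 against 0.38 to 2.76 in PBS.

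The steepest rises of all carried no gene name. Counted after their values were seen, 73 bright items were more than 32-fold higher in LPS, and 71 of them were bare identifiers, with Cd177 and Derl3 the named ones. The median difference of the identifiers was 6.04 and the highest 7.72. In mice given NNK, 70 of the 73 were also called higher with endotoxin, against 9.60% of bright items, in a comparison that uses none of the same arrays. What these sequences encode was not identified here.

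Of genes well above background on all LPS arrays and on no PBS array, 3 qualified for naming: the tetraspanin Tspan10, the oocyte-secreted Oosp1 and the homeobox gene Dbx2. Tspan10 read -8.37, -8.32 and -8.16 on the PBS arrays and -2.03, -2.61 and -1.82 on the LPS arrays, at least 15.3-fold higher when the PBS arrays are set at the lowest signal that still counted as above background. Oosp1 was at least 24.7-fold and Dbx2 at least 10.6-fold higher on the same reckoning. Each bound uses the mean over the LPS arrays and the floor of each PBS array.

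The largest bright falls were of another kind, with few immune genes among them. Xdh, the xanthine dehydrogenase of purine breakdown, read 1.95, 2.68 and 2.53 on the PBS arrays and -2.27, -1.27 and -1.43 on the LPS arrays. It fell by 4.04 ± 0.33 (adjusted p = 3.82e-06), with no overlap. Arl6ip5, a membrane protein of the endoplasmic reticulum, read 4.26, 4.16 and 3.97 on the PBS arrays and 0.92, 0.91 and 0.74 on the LPS arrays, and fell by 3.27 ± 0.23 (adjusted p = 2.1e-06). Its arrays were tight within both groups. Bex4 (difference -3.18 ± 0.64, adjusted p = 0.00116) and Bex2 (-2.83 ± 0.61, adjusted p = 0.00173) are small X-linked proteins of the same family and fell together. Clec1b, the platelet receptor for podoplanin, read 1.43, 1.54 and 1.73 on the PBS arrays and -1.25, -1.48 and -0.92 on the LPS arrays, and fell by 2.78 ± 0.33 (adjusted p = 3.83e-05), and Rgs18, a signalling brake of platelets and their precursors, fell by 3.04 ± 0.36 (adjusted p = 3.93e-05). Npr3, the clearance receptor for natriuretic peptides, differed by -3.08 ± 0.41 (adjusted p = 7.93e-05) and the amino acid transporter Slc6a14 by -2.69 ± 0.29 (adjusted p = 2.17e-05). Dermatopontin, Dpt, a small matrix protein of fibroblasts, read 3.56, 3.73 and 3.82 on the PBS arrays and 2.15, 1.19 and -0.37 on the LPS arrays, and fell by 2.72 ± 0.53 (adjusted p = 0.00101). LPS arrays of Dpt were spread over 2.52 log2 units and its PBS arrays over 0.27. Zinc finger gene Zfp948 (-2.63 ± 0.47, adjusted p = 0.000520) and Vapb (-2.62 ± 0.24, adjusted p = 6.6e-06), which tethers the endoplasmic reticulum to other membranes, closed the list. The 2 other tested probes of Vapb differed by -0.074 (adjusted p = 0.88) and -0.024 (adjusted p = 0.95) and were not called. The co-repressor Sin3b was above background on every PBS array and on no LPS array, and was at least 5.39-fold lower in LPS. By the same bound, the protease Adamts4 was at least 6.16-fold lower, the kinesin Kif12 at least 6.55-fold, the microtubule protein Eml6 at least 10.9-fold and the glutamate receptor subunit Gria3 at least 6.24-fold. These bounds are those of the brightest probe, and a second tested probe differed by -0.75 for Eml6 (adjusted p = 0.0432) and by -1.42 for Gria3 (adjusted p = 0.000615).

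Gene lists are described next by how many tested members were called, to be read against 26.1% called higher, 30.0% called lower and a median difference of -0.061 over all items. Lists made up mainly of bright genes are to be read against bright items: 35.2% higher, 19.6% lower and a median of 0.29. Plasma cell and B cell genes rose together. Of 14 plasma cell genes tested, 11 rose and 0 fell, with a median difference of 1.91. Mzb1, which assists immunoglobulin assembly, read -1.07, -0.39 and -0.65 on the PBS arrays and 3.70, 2.58 and 2.72 on the LPS arrays, a rise of 3.70 ± 0.31 (adjusted p = 4.04e-06). Pou2af1, the B cell co-activator of octamer promoters, read 1.11, 1.61 and 2.12 on the PBS arrays and 4.62, 4.46 and 4.69 on the LPS arrays, a rise of 2.98 ± 0.27 (adjusted p = 7e-06). Both were separated from PBS by more than the range within either group. Among 21 B cell markers 15 rose and 0 fell (median 1.78). Blnk, an adaptor below the B cell receptor, rose by 2.93 ± 0.28 (adjusted p = 8.23e-06), the IgM Fc receptor Fcmr by 2.57 ± 0.34 (adjusted p = 7.7e-05) and the transcription factor Bcl11a by 2.23 ± 0.29 (adjusted p = 7.83e-05). With PBS array 3 as the vehicle, 8 plasma cell genes and 10 B cell markers were called higher and 0 lower.

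Of 28 T cell markers 18 rose and 0 fell (median 1.06). Cd6, a T cell co-receptor, read 1.30, 0.96 and 1.07 on the PBS arrays and 4.42, 4.42 and 4.44 on the LPS arrays, a rise of 3.32 ± 0.35 (adjusted p = 1.73e-05), and its near relative Cd5 read 0.70, 0.72 and 0.77 on the PBS arrays and 3.87, 4.09 and 3.91 on the LPS arrays, a rise of 3.23 ± 0.33 (adjusted p = 1.44e-05). Within LPS the Cd6 arrays differed by 0.02 at most. Thy1, on T cells and some fibroblasts, rose by 3.37 ± 0.36 (adjusted p = 1.88e-05) and the receptor kinase Zap70 by 3.00 ± 0.34 (adjusted p = 2.6e-05). Cd3e, part of the T cell receptor complex, read -3.06, -2.08 and -2.59 on the PBS arrays and -0.34, -0.23 and -0.89 on the LPS arrays, a rise of 2.09 ± 0.36 (adjusted p = 0.000454). The checkpoint and immunosuppression list had 11 rises among 20 genes (median 0.78), among them Icosl (1.59 ± 0.26, adjusted p = 0.000323), Vsir (1.03 ± 0.24, adjusted p = 0.00291) and Tgfb1 (1.96 ± 0.33, adjusted p = 0.000346), while ecto-nucleotidase Nt5e (-1.08 ± 0.30, adjusted p = 0.00865) and arginase Arg1 fell. Arg1 was on no LPS array above background and was at least 2.27-fold lower, but after normexp background correction its difference was -0.015 (adjusted p = 0.983). Lag3, an inhibitory receptor of activated T cells chosen after its value was seen, read -3.38, -4.51 and -4.23 on the PBS arrays and 0.21, 0.72 and 0.29 on the LPS arrays, the largest rise of that list. Cytotoxic and natural killer markers were split. Of 18 tested, 7 rose and 4 fell. Of the 6 bright members 3 rose and 1, Klrd1, fell. After normexp background correction 5 members were called higher and 0 lower (median 0.58). The granule protein Nkg7 (difference 2.09 ± 0.34, adjusted p = 0.000293), the interleukin receptor chain Il2rb (1.75 ± 0.30, adjusted p = 0.000406) and the cathepsin Ctsw (1.86 ± 0.36, adjusted p = 0.000998) were higher. Ncr1 (-2.77 ± 0.56, adjusted p = 0.00116), Gzma (-2.66 ± 0.48, adjusted p = 0.000610), Klre1 (above background on no LPS array, so with no fold) and Klrd1 (-1.03 ± 0.42, adjusted p = 0.0491), receptors or granule proteins of natural killer cells, were lower. Klrd1 kept its call under 8 of 19 alternatives and lost it without any 1 of the PBS arrays. With PBS array 3 alone the list median was -0.51, against 0.45 with all PBS arrays, and 5 members were called lower.

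Among 14 genes of MHC class II and its peptide loading 12 rose and 0 fell, with a median difference of 2.07. H2-Ab1, a class II beta chain, read 5.43, 4.77 and 5.85 on the PBS arrays and 8.52, 8.85 and 8.33 on the LPS arrays, a rise of 3.22 ± 0.29 (adjusted p = 7e-06). The invariant chain Cd74 read 5.39, 4.96 and 5.90 on the PBS arrays and 8.21, 8.73 and 8.23 on the LPS arrays, a rise of 2.97 ± 0.29 (adjusted p = 1.15e-05). Genes of the peptide-loading step, H2-DMa (3.51 ± 0.32, adjusted p = 7.78e-06) and H2-Oa (3.44 ± 0.31, adjusted p = 6.12e-06), rose as well, and so did Ciita (2.54 ± 0.47, adjusted p = 0.000680), the co-activator that class II promoters require. For all of these the lowest LPS array was above the highest PBS array. Of 18 genes of class I processing 14 rose and 0 fell (median 1.29). Psmb8, an inducible proteasome subunit, read 3.70, 2.87 and 4.20 on the PBS arrays and 6.22, 6.54 and 5.68 on the LPS arrays, a rise of 2.56 ± 0.36 (adjusted p = 0.000124), and the peptide-loading chaperone Tapbp rose by 2.35 ± 0.35 (adjusted p = 0.000176). The class I heavy chain H2-D1 read 7.47, 7.18 and 8.22 on the PBS arrays and 9.42, 9.86 and 9.64 on the LPS arrays and the Qa-1 gene H2-T23 read 6.50, 6.05 and 7.08 on the PBS arrays and 8.11, 8.61 and 8.51 on the LPS arrays. Their rises of 2.02 ± 0.31 (adjusted p = 0.000214) and 1.87 ± 0.31 (adjusted p = 0.000351) were not called after quantile normalization, where the differences were 0.67 and 0.63, nor after cyclic loess (0.53 and 0.57). The count of class I processing genes called higher was 4 after quantile (median 0.56) and 4 after cyclic loess normalization (median 0.50), 8 after normexp background correction and 6 with PBS array 3 alone. Class I genes are near copies of each other, and a probe for 1 may bind others.

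Promoters of class II genes share a box with an inverted CCAAT core, where the factor NF-Y binds next to the complex that recruits Ciita. Windows from 250 bases before to 50 after each start (RefSeq, GRCm38.p6) were found for 9 of the 14 class II genes tested. The core GATTGG, searched on both strands, occurred in 7 of those 9, H2-Aa, H2-DMa, H2-DMb1, H2-DMb2, H2-Oa, H2-Ob and Rfx5, and in 16.1% of all 32851 windows. Below, H2-Oa (chr17:34092129-34092428, plus strand) and H2-Aa (chr17:34287774-34288073, minus strand) are shown because both genes rose and both hold the core, in capitals, 44 and 49 bases before the start. H2-Aa, a class II alpha chain, read 3.88, 3.27 and 4.34 on the PBS arrays and 6.36, 5.80 and 5.36 on the LPS arrays.
H2-Oa: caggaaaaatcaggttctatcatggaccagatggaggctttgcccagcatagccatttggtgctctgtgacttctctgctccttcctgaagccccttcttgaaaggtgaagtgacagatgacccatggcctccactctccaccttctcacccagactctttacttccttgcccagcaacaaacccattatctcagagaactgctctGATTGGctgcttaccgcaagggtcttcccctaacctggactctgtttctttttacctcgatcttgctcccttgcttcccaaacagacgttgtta
H2-Aa: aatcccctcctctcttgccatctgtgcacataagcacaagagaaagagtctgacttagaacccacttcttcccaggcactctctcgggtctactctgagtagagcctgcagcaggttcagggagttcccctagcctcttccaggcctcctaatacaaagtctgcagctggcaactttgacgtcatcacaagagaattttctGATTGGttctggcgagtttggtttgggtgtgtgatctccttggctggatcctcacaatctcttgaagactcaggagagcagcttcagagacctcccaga
A match of letters describes the window and shows no binding. The H2-Aa window also holds 1 match of the kappaB motif used further below, and the shown Cxcl9 window 1 match of this core, neither overlapping the capitals.

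Most complement genes and most markers of recruited macrophages rose, and the resident alveolar macrophage list had no direction that held under other scalings. Of 23 complement genes 17 rose and 1 fell (median 1.5). C1qa read 1.01, 0.17 and 1.63 on the PBS arrays and 5.56, 5.32 and 4.85 on the LPS arrays, a rise of 4.30 ± 0.37 (adjusted p = 4.6e-06), a 19.8-fold difference. C1qb rose by 3.97 ± 0.32 (adjusted p = 3.82e-06) and C1qc by 4.31 ± 0.30 (adjusted p = 1.99e-06), so the 3 chains of this pattern-recognition molecule, made largely by macrophages, moved by similar amounts. Properdin, Cfp, which stabilises the alternative pathway convertase, rose by 2.36 ± 0.29 (adjusted p = 4.99e-05). Among 31 monocyte and recruited macrophage markers 23 rose and 2 fell (median 1.69). Cx3cr1, the fractalkine receptor, read -2.12, -2.09 and -2.05 on the PBS arrays and 0.52, 0.69 and 0.49 on the LPS arrays, a rise of 2.65 ± 0.30 (adjusted p = 2.73e-05), and Adgre1, an adhesion receptor of macrophages, rose by 1.43 ± 0.31 (adjusted p = 0.00189). A second tested probe of Adgre1 differed by 0.14 (adjusted p = 0.851) and was not called. Cd163 and Arg1 were the markers that fell: Cd163, a haemoglobin scavenger receptor, was above background on no LPS array and at least 5.15-fold lower. Of 27 alveolar macrophage markers 9 rose and 3 fell. Their median of 0.40 turned to -0.32 after quantile and -0.32 after cyclic loess normalization. Cathepsin Ctsd (2.32 ± 0.25, adjusted p = 1.96e-05), integrin Itgax (2.08 ± 0.28, adjusted p = 9.43e-05), Csf2ra (1.64 ± 0.31, adjusted p = 0.000771) and Bhlhe40 (1.39 ± 0.25, adjusted p = 0.000519) rose, and Fabp1 (-1.48 ± 0.47, adjusted p = 0.0163), Krt79 (-1.06 ± 0.42, adjusted p = 0.0452, groups overlapping) and Siglecf (-0.68 ± 0.26, adjusted p = 0.0380) fell. Siglecf kept its call under 9 of 19 alternatives. The scavenger receptor Marco read 3.43, 0.18 and 1.78 on the PBS arrays and 0.85, -0.21 and 0.53 on the LPS arrays, with overlapping groups, and was not called (-1.41 ± 0.65, adjusted p = 0.0787).

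Dendritic cell markers went both ways. Of 23, 10 rose and 5 fell (median 0.66). Itgae, the integrin of Cd103-bearing cells, read -0.60, -0.85 and -0.42 on the PBS arrays and 2.20, 1.82 and 2.14 on the LPS arrays, a rise of 2.67 ± 0.21 (adjusted p = 3.68e-06). Irf8 (2.40 ± 0.23, adjusted p = 1.14e-05) and Batf3 (2.49 ± 0.30, adjusted p = 3.93e-05), factors that type 1 conventional dendritic cells need, and the lectin Clec10a (2.33 ± 0.29, adjusted p = 5.99e-05) rose with it. The lectins Cd209b (-4.26 ± 0.77, adjusted p = 0.000615), Cd209d (-2.93 ± 0.35, adjusted p = 3.72e-05) and Cd209a (at least 2.50-fold), the plasmacytoid marker Siglech (at least 1.89-fold) and the peptidase Dpp4 (-1.39 ± 0.26, adjusted p = 0.000657) fell. Of those 5 only Dpp4 was bright, and Cd209a and Siglech were above background on no LPS array. Of 17 genes of mast cells, basophils, eosinophils and type 2 responses, 2 rose and 7 fell, a median of -0.69. Hdc, the histidine decarboxylase that makes histamine, rose by 1.15 ± 0.28 (adjusted p = 0.00410), and the cytokine Il13, whose groups overlapped, by 0.92 ± 0.36 (adjusted p = 0.0431). The call of Hdc was kept under 15 of 19 alternatives, where its difference was 0.30 to 1.44, and was lost after quantile, cyclic loess and normexp processing. Kit fell by 0.93 ± 0.27 (adjusted p = 0.0108). After normexp correction the list median was 0.11 with 0 members called lower, and 5 of the 17 members were bright.

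Among 18 CXC chemokines and receptors 8 rose and 2 fell (median 0.75). Cxcl9, an interferon gamma-induced ligand of Cxcr3, read 0.20, -4.94 and -3.12 on the PBS arrays and 1.79, 2.85 and 1.14 on the LPS arrays, a rise of 4.55 ± 0.97 (adjusted p = 0.00169). PBS array 1 read far above the other PBS arrays for this gene, and without it the difference was 5.96 (adjusted p = 8.92e-05). The receptor Cxcr3 itself read -0.83, -1.13 and -0.19 on the PBS arrays and 2.56, 2.70 and 2.85 on the LPS arrays, a rise of 3.42 ± 0.27 (adjusted p = 3.54e-06) with tight groups. Cxcr6 (2.34 ± 0.33, adjusted p = 0.000122) and its ligand Cxcl16 (1.28 ± 0.34, adjusted p = 0.00614) also rose. Platelet chemokine Ppbp (-1.88 ± 0.57, adjusted p = 0.0132) and the neutrophil receptor Cxcr2 (-1.5 ± 0.36, adjusted p = 0.00329) fell. Of 27 CC chemokines, their receptors and related genes 13 rose and 4 fell (median 1.12). Ccl8, a monocyte attractant, read 0.23, -1.91 and -0.23 on the PBS arrays and 2.35, 3.96 and 3.32 on the LPS arrays, a rise of 3.84 ± 0.53 (adjusted p = 0.000109), and the membrane-bound chemokine Cx3cl1 rose by 1.81 ± 0.29 (adjusted p = 0.000267). The 4 that fell were the eosinophil attractant Ccl24 (-1.85 ± 0.40, adjusted p = 0.00195), its receptor Ccr3 (-1.19 ± 0.38, adjusted p = 0.0171, groups overlapping), Ccl25 (-1.79 ± 0.31, adjusted p = 0.000458) and Ccl27a (-0.63 ± 0.24, adjusted p = 0.0405). Of 20 genes of lymphoid tissue and homing 11 rose (median 0.87), with the selectin ligand Selplg (2.27 ± 0.21, adjusted p = 8.86e-06) and the fucosyltransferase Fut7 (1.98 ± 0.28, adjusted p = 0.000117) that modifies it. Glycam1, a mucin of high endothelial venules chosen after its value was seen, read -8.49, -8.42 and -5.93 on the PBS arrays and 0.82, 0.41 and -1.41 on the LPS arrays. It was above background on 1 PBS array and on all LPS arrays.

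Endotoxin-sensing genes and NF-kB genes were called higher more often than lower against PBS. Of 24 endotoxin-sensing genes 11 rose and 4 fell (median 0.52). Adaptor genes Ticam1 (1.71 ± 0.26, adjusted p = 0.000190) and Myd88 (1.08 ± 0.22, adjusted p = 0.00130) rose, as did Tlr2 (1.54 ± 0.33, adjusted p = 0.00160), a receptor for bacterial lipoproteins. Lbp, the plasma protein that hands endotoxin to Cd14, read 2.54, 2.06 and 2.33 on the PBS arrays and 4.08, 4.20 and 3.25 on the LPS arrays, a rise of 1.53 ± 0.37 (adjusted p = 0.00380). Tlr4 read -0.60, -0.77 and -0.76 on the PBS arrays and -2.90, -1.77 and -1.48 on the LPS arrays, and fell by 1.34 ± 0.45 (adjusted p = 0.0224), and its partner Ly96 was not called (-0.19 ± 0.35, adjusted p = 0.654). Tlr8 (above background on no LPS array), Trem1 (-1.17 ± 0.40, adjusted p = 0.0233, groups overlapping) and Traf6 (-0.58 ± 0.21, adjusted p = 0.0327) were the other members that fell. None of the 4 was bright. Among 18 NF-kB subunits and feedback inhibitors 11 rose and 2 fell (median 0.96). Nfkb2 read 1.39, 0.35 and 1.22 on the PBS arrays and 3.03, 3.96 and 3.17 on the LPS arrays, a rise of 2.40 ± 0.31 (adjusted p = 7.3e-05), its partner Relb rose by 2.09 ± 0.28 (adjusted p = 9.55e-05), the inhibitor Nfkbie by 2.25 ± 0.33 (adjusted p = 0.000171) and the brake Tnip1 by 1.63 ± 0.24 (adjusted p = 0.000149). The kinase gene Chuk (-1.46 ± 0.25, adjusted p = 0.000400) and the deubiquitinase gene Cyld (-1.20 ± 0.25, adjusted p = 0.00155) fell. Against the NNK arrays, the sensing list gave 3 rises and 0 falls (median 0.49) and the NF-kB list 2 and 1 (0.40). In LPS/NNK against NNK they gave 6 and 1 (0.55) and 5 and 1 (0.62). Ticam1 (0.044), Lbp (-0.019), Myd88 (0.34), Tlr2 (0.97), Nfkb2 (0.51), Relb (0.63) and Tnip1 (0.52) were not called in LPS against NNK, while Nfkbie was (1.27).

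NF-kB binds kappaB sites, here searched as GGGANTTCC on both strands. It occurred in 1.68% of all promoter windows, in 4 of the 15 NF-kB genes with a window (Bcl3, Nfkb2, Tnfaip3 and Tnip1) and in 2 of the 14 CXC genes with one (Cxcl9 and Cxcl10). Cxcl9 (chr5:92328030-92328329, minus strand) and Nfkb2 (chr19:46304487-46304786, plus strand, 1 of its 3 windows) are shown because both rose. The capitals mark the motif, which starts 42 bases before the start in Cxcl9 and 39 and 38 bases before it in Nfkb2, where both strands match at positions shifted by 1 base.
Cxcl9: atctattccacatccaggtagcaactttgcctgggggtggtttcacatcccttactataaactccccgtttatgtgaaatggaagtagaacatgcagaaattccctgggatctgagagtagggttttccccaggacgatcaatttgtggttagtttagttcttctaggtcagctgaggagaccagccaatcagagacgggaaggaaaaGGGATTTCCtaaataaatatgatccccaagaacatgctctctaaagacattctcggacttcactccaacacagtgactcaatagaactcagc
Nfkb2: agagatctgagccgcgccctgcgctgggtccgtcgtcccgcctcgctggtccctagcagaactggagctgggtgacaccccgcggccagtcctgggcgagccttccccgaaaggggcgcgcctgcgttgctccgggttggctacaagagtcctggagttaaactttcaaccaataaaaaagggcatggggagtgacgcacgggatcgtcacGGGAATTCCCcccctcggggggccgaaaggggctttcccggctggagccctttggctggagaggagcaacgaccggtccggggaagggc

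Of 20 cytokine and interleukin genes tested 9 rose and 2 fell (median 0.64). Ebi3 read 0.74, -0.68 and -0.40 on the PBS arrays and 2.56, 3.03 and 3.35 on the LPS arrays, a rise of 3.09 ± 0.35 (adjusted p = 2.64e-05), and Il27, whose product pairs with that of Ebi3 to form interleukin 27, rose by 1.60 ± 0.23 (adjusted p = 0.000120). Ifng, the interferon of activated T and natural killer cells, read -2.28, -3.36 and -1.92 on the PBS arrays and -0.15, 0.72 and -0.56 on the LPS arrays, a rise of 2.52 ± 0.43 (adjusted p = 0.000403). Ifng was chosen after its value was seen. Il1b read 2.77, -0.24 and 1.32 on the PBS arrays and -0.71, -0.78 and -0.83 on the LPS arrays. Its difference of -2.06 ± 0.61 (adjusted p = 0.0112) was -1.31 (adjusted p = 0.0542) without PBS array 1, the highest vehicle array. Il1a, the other member that fell, was above background on no LPS array and at least 1.66-fold lower. Interferon gamma response genes gave a mixed picture. Of 25, 8 rose and 1 fell (median 0.55). The median over these genes was 1.06 to 2.61 on single PBS arrays and 2.26 to 3.27 on LPS arrays. Socs1, a feedback inhibitor of cytokine receptors, read 0.94, 0.20 and 0.97 on the PBS arrays and 2.68, 4.33 and 3.93 on the LPS arrays, a rise of 2.94 ± 0.40 (adjusted p = 0.000101), and the receptor chain Ifngr2 rose by 1.12 ± 0.25 (adjusted p = 0.00250). Guanylate-binding protein gene Gbp7 was the member that fell (-1.29 ± 0.52, adjusted p = 0.0497), with overlapping groups. Against PBS array 3 alone, the median was -0.26, with 5 members called higher and 4 lower. Type I interferon genes followed no common direction. Of 30, 12 rose and 5 fell (median 0.49). Oas1a (2.76 ± 0.51, adjusted p = 0.000654), an RNA sensor with close relatives, Dhx58 (1.42 ± 0.30, adjusted p = 0.00156), Ifi27l2a (2.07 ± 0.45, adjusted p = 0.00187) and the receptor chain Ifnar2 (1.15 ± 0.23, adjusted p = 0.00120) rose. Ifit2 (-1.76 ± 0.35, adjusted p = 0.00107), Rsad2 (-1.32 ± 0.30, adjusted p = 0.00234), Ifit1 (-1.13 ± 0.34, adjusted p = 0.0120), Eif2ak2 (-0.91 ± 0.30, adjusted p = 0.0207) and Ifit3 (-0.89 ± 0.27, adjusted p = 0.0123), all antiviral effectors, fell.

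**Figure D3:**
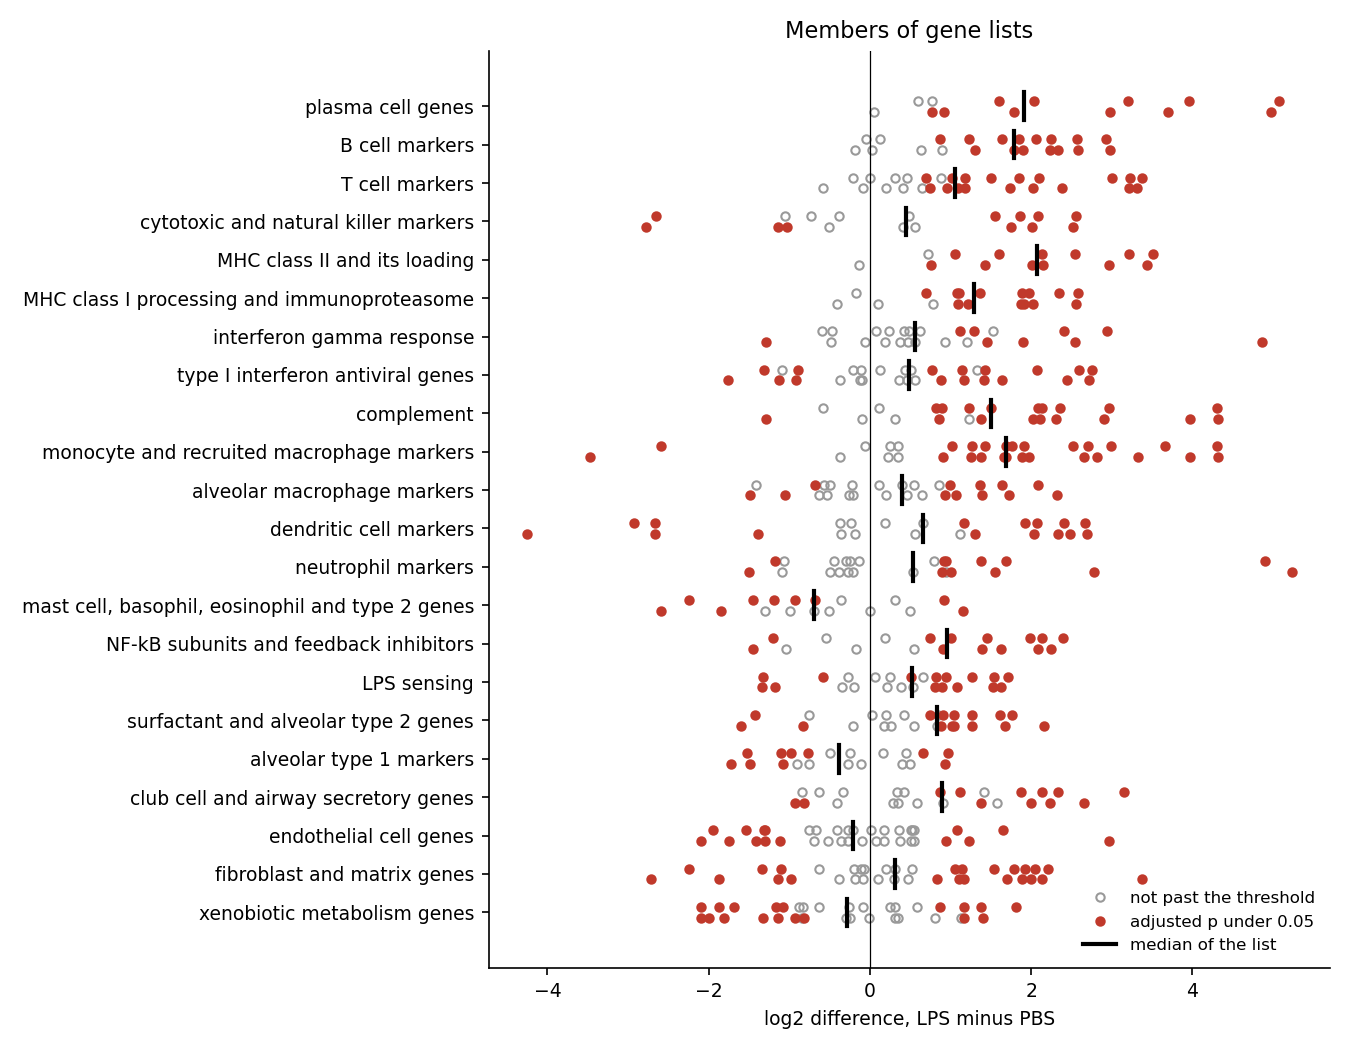
Log2 difference between LPS and PBS (horizontal axis) of each tested member of 22 gene lists, filled red where the adjusted p was under 0.05 and open grey otherwise; the black bar is the median of the list. The plasma cell and class II medians stand at 1.91 and 2.07, those of alveolar type 1 and xenobiotic metabolism genes at -0.39 and -0.28.

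Neutrophil genes did not move as a block. Of 25 markers 10 rose and 2 fell (median 0.53). Besides Cd177 and Ltf, the gelatinase Mmp9 read -1.38, -2.03 and -1.36 on the PBS arrays and -0.59, 0.37 and 0.11 on the LPS arrays, a rise of 1.55 ± 0.43 (adjusted p = 0.00819). The abundant cytosolic gene S100a8 read 3.12, 1.36 and 1.62 on the PBS arrays and 1.05, 1.33 and 2.25 on the LPS arrays, with overlapping groups, and was not called (-0.49 ± 0.49, adjusted p = 0.411). Cxcr2 and Trem1, named above, were the markers that fell. Acute phase genes gave 5 rises among 17 (median 0.28) and 0 falls: Lrg1 (3.45 ± 0.42, adjusted p = 4.27e-05), Itih4 (2.17 ± 0.50, adjusted p = 0.00289), Lbp, the siderophore-binding Lcn2 and the fibrinogen chain Fga. Fga was above background on 1 PBS array and on no LPS array, so no fold is given for it. Lrg1, a secreted leucine-rich glycoprotein, read 4.42, 2.59 and 3.26 on the PBS arrays and 6.6, 7.60 and 6.42 on the LPS arrays, the clearest of them against PBS. Its mean was 7.13 in the NNK group and 6.87 in LPS, a difference of -0.26 ± 0.42 in limma (adjusted p = 0.807). Against NNK the acute phase list gave 1 rise and 1 fall. Lcn2 read 3.18, -0.80 and -1.41 on the PBS arrays and 3.77, 3.01 and 2.54 on the LPS arrays, so that PBS array 1 lay within the LPS range. Its rise of 2.78 ± 0.88 (adjusted p = 0.0162) was not called without LPS array 1 (2.45, adjusted p = 0.0594), nor without PBS array 2 (2.22, adjusted p = 0.0725), nor without PBS array 3 (1.92, adjusted p = 0.0802). Among 25 secreted mucosal defence genes 13 rose and 0 fell. The list median of 1.04 became -0.052 after cyclic loess normalization. Pigr, the polymeric immunoglobulin receptor, read 0.99, -0.97 and 0.18 on the PBS arrays and 3.64, 3.05 and 1.68 on the LPS arrays, a rise of 2.73 ± 0.58 (adjusted p = 0.00172). The surface mucin Muc1 rose by 2.16 ± 0.54 (adjusted p = 0.00435). Cystatin Cst3 differed by 0.97 ± 0.20 (adjusted p = 0.00156), but by -0.20 after quantile and -0.24 after cyclic loess normalization.

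Epithelial lists moved in unlike ways. Of 25 surfactant and alveolar type 2 genes 12 rose and 3 fell (median 0.84). The surfactant-processing protease Napsa (1.62 ± 0.22, adjusted p = 8.56e-05), the fatty acid synthase Fasn (1.76 ± 0.30, adjusted p = 0.000431) and the lung transcription factor Nkx2-1 (1.26 ± 0.31, adjusted p = 0.00411) rose, and the lipid scavenger Cd36 (-1.60 ± 0.25, adjusted p = 0.000254), Hc (-1.43 ± 0.41, adjusted p = 0.00917) and Lamp3 (-0.83 ± 0.28, adjusted p = 0.0211) fell. Sftpc read 8.50, 8.41 and 9.36 on the PBS arrays and 9.36, 9.90 and 10.07 on the LPS arrays, a difference of 1.02 ± 0.38 (adjusted p = 0.0332) that was -0.42 after quantile and -0.67 after cyclic loess normalization. Among 20 alveolar type 1 genes, all of them bright, 3 rose and 7 fell (median -0.39), against 35.2% and 19.6% of bright items. With PBS array 3 alone 0 were called higher and 3 lower. Hopx, a homeodomain protein of type 1 cells, read 5.37, 5.92 and 5.63 on the PBS arrays and 4.68, 3.73 and 4.04 on the LPS arrays, and fell by 1.49 ± 0.27 (adjusted p = 0.000572). Basement membrane chain Col4a3 fell by 1.72 ± 0.30 (adjusted p = 0.000500), and Limch1 fell by 1.53 ± 0.26 (adjusted p = 0.000391). The 3 that rose were Scnn1a (0.97 ± 0.29, adjusted p = 0.0128), Igfbp2 (0.66 ± 0.24, adjusted p = 0.0299) and Gprc5a (0.93 ± 0.23, adjusted p = 0.00440), and Gprc5a differed by -0.089 after cyclic loess normalization. Ager, the defining type 1 marker, was not called (0.45 ± 0.28, adjusted p = 0.190).

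Of 24 club cell and airway secretory genes 10 rose and 2 fell (median 0.89). Among the 17 bright ones 6 rose, a share near that of all bright items. Scgb3a1, a secretoglobin of secretory cells, read 4.59, 3.96 and 5.75 on the PBS arrays and 7.21, 8.87 and 7.66 on the LPS arrays, a rise of 3.15 ± 0.52 (adjusted p = 0.000343). The reductase gene Por, which serves the cytochromes P450, rose by 1.38 ± 0.27 (adjusted p = 0.000941). Scgb1a1 was not called (0.29 ± 0.29, adjusted p = 0.413), and Cbr2 differed by 1.12 ± 0.33 (adjusted p = 0.0107), but by -0.40 and -0.49 after quantile and cyclic loess normalization. Aldh1a1 (-0.93 ± 0.21, adjusted p = 0.00217) and Gabrp (-0.82 ± 0.24, adjusted p = 0.0115) fell. Among 20 ciliated cell genes 7 rose and 2 fell (median 0.33). Foxj1, the master factor of motile cilia, differed by 0.84 ± 0.26 (adjusted p = 0.0150), Tppp3 by 0.83 ± 0.22 (adjusted p = 0.00620) and Cfap126 by 1.08 ± 0.34 (adjusted p = 0.0152), and none of these was called after quantile normalization. Tuba1a differed by 1.08 ± 0.31 (adjusted p = 0.00940) and by -0.0024 after cyclic loess. Spag16 (above background on no LPS array) and Sntn (-1.24 ± 0.30, adjusted p = 0.00356) fell. With PBS array 3 alone, the ciliated median was -0.21. Of 12 basal and squamous genes 6 rose and 1 fell (median 0.74). Integrin chain Itgb4 (1.59 ± 0.33, adjusted p = 0.00137), keratin Krt14 (1.10 ± 0.32, adjusted p = 0.0107) and Ngfr (0.86 ± 0.26, adjusted p = 0.0141) were among the rises, and Perp (-0.67 ± 0.24, adjusted p = 0.0280), with its call kept under 10 of 19 alternatives, was the fall. Ngfr kept its call under 14 of 19, and its second tested probe differed by 0.39 (adjusted p = 0.267) and was not called. 3 of these 12 genes were bright.

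Of 35 endothelial genes 5 rose and 9 fell (median -0.21), and of the 30 bright ones 3 rose and 7 fell. Tek, the angiopoietin receptor, read 2.84, 3.32 and 3.1 on the PBS arrays and 1.67, 0.90 and 0.41 on the LPS arrays, and fell by 2.10 ± 0.33 (adjusted p = 0.000265). Tmem100 (-1.94 ± 0.30, adjusted p = 0.000211) and the endothelin receptor Ednrb (-1.41 ± 0.26, adjusted p = 0.000722) fell as well, while a second tested probe of Ednrb differed by -0.46 (adjusted p = 0.364) and was not called. Gja4 (1.65 ± 0.27, adjusted p = 0.000355), a gap junction protein of arteries, Eng (0.94 ± 0.34, adjusted p = 0.0313), Vwf (1.23 ± 0.31, adjusted p = 0.00465), Selp (1.08 ± 0.31, adjusted p = 0.00993) and Ackr1 (2.96 ± 0.35, adjusted p = 3.48e-05) rose, the last 3 being products of venular endothelium. Among 18 smooth muscle and pericyte genes 7 rose (median 0.63), with Lmod1 (1.41 ± 0.24, adjusted p = 0.000419), Actg2 (1.36 ± 0.38, adjusted p = 0.00830) and Pdgfrb (1.07 ± 0.28, adjusted p = 0.00647), while Postn (-1.34 ± 0.30, adjusted p = 0.00222) and Rgs5 (-1.17 ± 0.42, adjusted p = 0.0290) fell. Neither Actg2 nor Pdgfrb was called after quantile normalization. Of 35 fibroblast and matrix genes 15 rose and 7 fell (median 0.31). Loxl1, which cross-links elastin, read 1.95, 1.90 and 2.56 on the PBS arrays and 3.91, 4.73 and 4.39 on the LPS arrays, a rise of 2.21 ± 0.34 (adjusted p = 0.000225), and the latent growth factor binding protein Ltbp2 rose by 2.04 ± 0.33 (adjusted p = 0.000268). Osteoglycin, Ogn, fell by 2.25 ± 0.36 (adjusted p = 0.000296). Of 21 metalloproteinases and inhibitors 10 rose and 3 fell (median 0.91). Adam8 (2.57 ± 0.36, adjusted p = 0.000107), Mmp23 (2.13 ± 0.30, adjusted p = 0.000108), Mmp14 (1.76 ± 0.31, adjusted p = 0.000505) and Mmp15 (1.44 ± 0.30, adjusted p = 0.00153) rose, and Adamts4, Mmp13 (above background on no LPS array) and Adamts1 (-0.96 ± 0.33, adjusted p = 0.0237) fell.

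Xenobiotic metabolism genes had more falls than rises and antioxidant genes more rises than falls. Of 34 xenobiotic genes 6 rose and 12 fell (median -0.28). Gsta1, a glutathione transferase, read 1.05, 1.01 and 0.61 on the PBS arrays and -0.93, -1.42 and -1.26 on the LPS arrays, and fell by 2.10 ± 0.31 (adjusted p = 0.000158). Flavin monooxygenase Fmo2 fell by 1.88 ± 0.33 (adjusted p = 0.000480), Aldh1a7 fell by 1.32 ± 0.23 (adjusted p = 0.000402), and the cytochrome Cyp2s1 rose by 1.81 ± 0.34 (adjusted p = 0.000748). Among 25 Nrf2 and glutathione genes 11 rose, 1 fell (Nqo1, -1.23 ± 0.25, adjusted p = 0.00120), and the median of 0.67 was -0.028 after cyclic loess normalization. Ferritin chain Ftl1 (1.66 ± 0.24, adjusted p = 0.000148), peroxidase Gpx1 (1.44 ± 0.23, adjusted p = 0.000239), Keap1 (1.36 ± 0.22, adjusted p = 0.000259) and transketolase Tkt (1.34 ± 0.26, adjusted p = 0.000885) were the clearest, and of these Keap1 alone was still called after cyclic loess.

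Housekeeping lists were mixed. Among 41 cytosolic ribosomal proteins, all of them bright, 15 rose and 3 fell, against 35.2% and 19.6% of bright items. Their median of 0.51 was -0.42 after quantile and -0.48 after cyclic loess normalization. Rpl18 differed by 1.38 ± 0.23 (adjusted p = 0.000316), Rps16 by 1.64 ± 0.28 (adjusted p = 0.000376) and Rps14 by 1.43 ± 0.25 (adjusted p = 0.000512), and Rpl4 (-1.26 ± 0.34, adjusted p = 0.00730), Rpl5 (-1.06 ± 0.31, adjusted p = 0.0117) and Rpl7 (-0.92 ± 0.28, adjusted p = 0.0141) fell. Of 35 respiratory chain genes, also all bright, 9 rose and 5 fell (median 0.20). After quantile normalization 5 were called higher and 13 lower (median -0.33), and after cyclic loess 2 and 16 (median -0.46). Uqcrc1 (1.57 ± 0.27, adjusted p = 0.000479), Cyc1 (1.30 ± 0.23, adjusted p = 0.000524), Cox4i1 (1.41 ± 0.25, adjusted p = 0.000534) and Ndufb8 (1.26 ± 0.25, adjusted p = 0.00106) rose, and the falls were Ndufb5, Ndufv2, Ndufa5, Ndufs4 and Ndufs1, between -1.02 and -0.75. Of 22 genes of endoplasmic reticulum stress 11 rose and 0 fell (median 0.61). Sdf2l1, a chaperone partner of the endoplasmic reticulum, read 1.17, 0.63 and 1.17 on the PBS arrays and 2.72, 2.98 and 2.44 on the LPS arrays, a rise of 1.73 ± 0.28 (adjusted p = 0.000293). Trib3 (1.44 ± 0.29, adjusted p = 0.00117), Hyou1 (1.39 ± 0.33, adjusted p = 0.00315) and Herpud1 (1.18 ± 0.30, adjusted p = 0.00467) also rose. Of 38 cell cycle genes 13 rose and 4 fell (median 0.33): mitotic regulators Plk1 (1.92 ± 0.34, adjusted p = 0.000504), Cdc20 (1.84 ± 0.31, adjusted p = 0.000337), Aurka (1.48 ± 0.35, adjusted p = 0.00326) and Ube2c (1.56 ± 0.25, adjusted p = 0.000304) were higher, and Bub1 (-1.37 ± 0.38, adjusted p = 0.00765), Nusap1 (-1.06 ± 0.32, adjusted p = 0.0120), Kif11 (above background on no LPS array) and Pcna (-0.68 ± 0.27, adjusted p = 0.0461) lower.

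Clock and immediate early genes can reflect the hour and handling at collection. Of 17 clock genes 5 rose (Dbp, Bhlhe41, Nr1d1, Bhlhe40 and Hlf) and 5 fell (Clock, Rora, Per3, Cry1 and Nr1d2). Dbp, a clock output factor, read 4.06, 5.30 and 3.13 on the PBS arrays and 6.25, 7.08 and 6.20 on the LPS arrays, a rise of 2.35 ± 0.49 (adjusted p = 0.00158), while Clock fell by 2.03 ± 0.42 (adjusted p = 0.00145) and Rora fell by 2.02 ± 0.24 (adjusted p = 3.45e-05). Among 20 immediate early genes Jund (2.14 ± 0.31, adjusted p = 0.000157), Junb (1.03 ± 0.27, adjusted p = 0.00615), Myc (1.31 ± 0.34, adjusted p = 0.00581), Egr2 (1.28 ± 0.40, adjusted p = 0.0152) and Ier2 (0.68 ± 0.25, adjusted p = 0.0314) rose and Nr4a2 (-0.88 ± 0.33, adjusted p = 0.0342) fell (median 0.006). The calls of Junb and Egr2 were each kept under 14 of 19 alternatives, where the lowest Junb difference was 0.11. Markers of tissue that can be carried along with lung were read too. Of 15 heart muscle genes 1 rose, Ckm (1.03 ± 0.40, adjusted p = 0.0433), and 3 fell, Casq2 (-1.78 ± 0.65, adjusted p = 0.0317), Pln (-1.54 ± 0.38, adjusted p = 0.00430) and Myl3 (-1.5 ± 0.34, adjusted p = 0.00242); a second tested probe of Myl3 rose by 1.08. The calls of Ckm and Casq2 were each kept under 10 of 19 alternatives. The cardiac myosin Myh6 read 3.31, 3.42 and 4.68 on the PBS arrays and 4.34, 4.85 and 3.09 on the LPS arrays, bright in every sample and not called (0.29 ± 0.56, adjusted p = 0.673). The median over heart genes was 1.74 to 2.60 on PBS arrays and 0.59 to 2.78 on LPS arrays. Red cell genes gave rises of Hba-a1 (1.21 ± 0.33, adjusted p = 0.00737) and Hbb-bt (1.17 ± 0.34, adjusted p = 0.0106), which were -0.34 and -0.37 after quantile normalization, and Bpgm fell (-0.94 ± 0.34, adjusted p = 0.0301). The other tested probes of Hbb-bt differed by 0.43 (adjusted p = 0.367), 0.80 (adjusted p = 0.09) and 0.35 (adjusted p = 0.452) and were not called. Alas2, the defining red cell gene, was not called either (0.45 ± 0.34, adjusted p = 0.268). Globin genes are near copies whose probes may cross-bind. The red cell list had a median of 0.35 over 9 genes. Of 10 fat tissue genes 5 rose, Plin1 (2.33 ± 0.62, adjusted p = 0.00662), Cidea (1.94 ± 0.69, adjusted p = 0.0291), Pnpla2 (1.70 ± 0.32, adjusted p = 0.000799), Dgat2 (1.66 ± 0.32, adjusted p = 0.000872) and Cidec (0.99 ± 0.36, adjusted p = 0.0324), and with PBS array 3 alone the list median was 0.16 instead of 1.11. The groups overlapped for Plin1, Cidea and Cidec. Adiponectin, Adipoq, the defining fat gene, was not called (0.25 ± 0.69, adjusted p = 0.773). None of the 4 thymus genes tested was called in limma (median -0.39), with 0 at an unadjusted p under 0.05, and the thymocyte recombinase Rag1 was not well above background on any array.

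List counts moved with the vehicle arrays and the scaling. Against PBS array 3 as the only vehicle array, the count called higher went from 12 to 5 for alveolar type 2 genes, from 10 to 3 for club cell genes and from 6 to 1 for basal genes. It went from 7 to 1 for smooth muscle genes, from 11 to 3 for stress genes of the endoplasmic reticulum and from 5 to 1 for immediate early genes. Among immune lists it went from 11 to 4 for LPS sensing, from 10 to 4 for neutrophil markers, from 13 to 6 for mucosal defence and from 12 to 5 for type I interferon genes. After cyclic loess normalization, 3 type 2 genes were called higher and 6 lower, with 5 and 7 of the club cell list, 3 and 7 of the Nrf2 list and 3 and 18 of the endothelial list. Genes called above that were not called with PBS array 3 alone included Lbp (1.51), Mmp9 (1.32), Dhx58 (1.22), Ifi27l2a (1.32), Itgb4 (1.30) and Myc (0.97), which kept their sign. The same held for Nt5e (-0.66), Postn (-0.93), Plin1 (0.63) and Cidea (0.23).

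The same course of endotoxin in mice that also received NNK gives a comparison with none of the arrays above. The NNK arrays were at slide position 2 and the LPS/NNK arrays at position 4, so position and group cannot be told apart here. By the labels, NNK ran for 4 weeks and endotoxin for 16, with killing 1 week after the last treatment. Mice of the NNK group may thus have been younger at killing, and the part of this was not tested. In this comparison 1730 items were called higher (7.92%) and 2043 lower (9.35%). Of the 3847 bright items called higher in LPS against PBS, 598 (15.5%) were called higher and 231 (6.0%) lower in LPS/NNK against NNK. Of the 2147 called lower, 161 (7.5%) were called lower there and 119 (5.54%) higher. Over all bright items 9.60% were called higher and 8.24% lower. The 598 shared rises were 57.0% of the 1049 bright items called higher in LPS/NNK against NNK, and the 161 shared falls 17.9% of the 900 called lower. Across bright items the differences correlated with r = 0.30, a description over items that are not independent replicates.

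Of the 12 largest bright rises, 9 were called higher in LPS/NNK against NNK: Derl3, Jchain, Gpr162, Cxcl9, C1qc, C1qa, Ccl19, H2-Q8 and C1qb. Jchain rose there by 4.00 ± 0.48 (adjusted p = 0.000271) and Cxcl9 by 6.99 ± 0.97 (adjusted p = 0.000635). Cd177 (0.12 ± 0.57, adjusted p = 0.904), Ltf (-0.37 ± 0.98, adjusted p = 0.824) and H1f5 (1.81 ± 0.67, adjusted p = 0.0804) were not called. Among the 12 falls, Npr3 (-1.36 ± 0.41, adjusted p = 0.0354), Rgs18 (-1.62 ± 0.36, adjusted p = 0.00997) and Clec1b (-1.25 ± 0.33, adjusted p = 0.0218) fell there too, and Vapb rose (1.17 ± 0.24, adjusted p = 0.00591). The class II list gave 10 rises and 0 falls there (median 1.63), complement 10 and 0 (1.09), T cell markers 14 and 1 (1.01), B cell markers 7 and 0 (0.85) and plasma cell genes 6 and 0 (0.96). Interferon gamma response genes gave 22 rises among 25 and 0 falls, with a median of 2.25 where the NNK-free pair had 0.55; the difference between these medians was not tested. Alveolar type 2 genes gave 0 rises and 6 falls (median -0.51), and ribosomal proteins 2 and 0 (0.27).

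**Figure D4:**
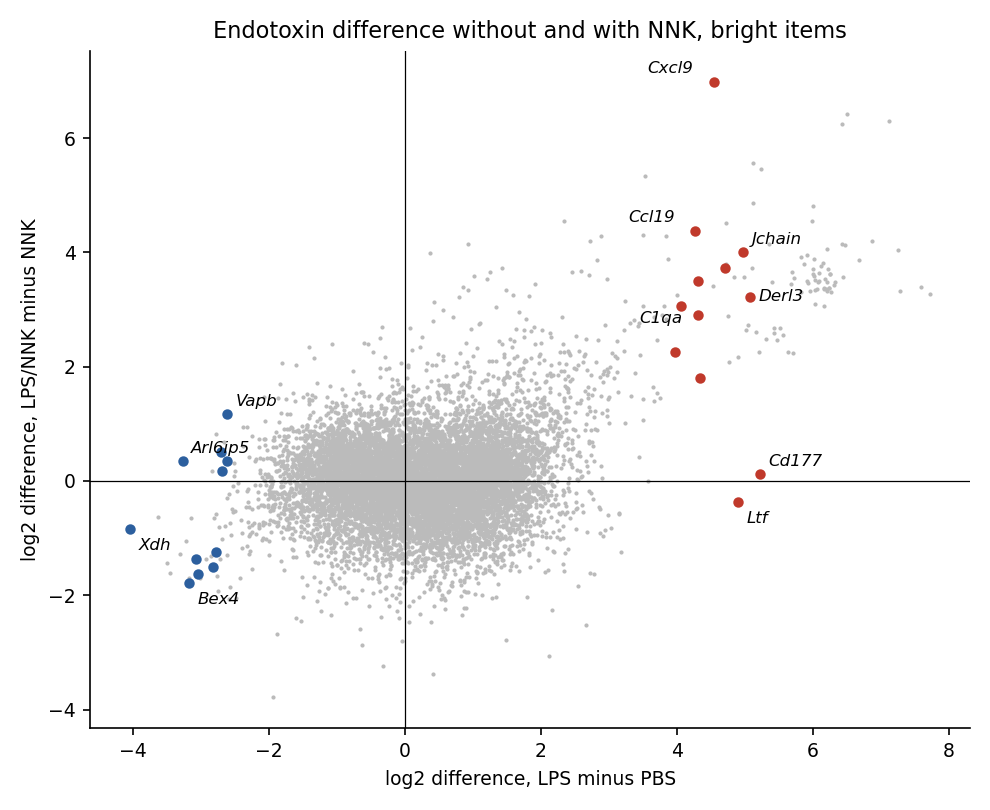
Log2 difference between LPS and PBS (horizontal axis) and between LPS/NNK and NNK (vertical axis), 1 grey point for each of the 10928 bright items, red for the 12 largest named rises and blue for 11 of the largest named falls. Cxcl9, Jchain and Ccl19 lie high on both axes, while Cd177, Ltf, Xdh and Arl6ip5 lie near 0 on the vertical axis.

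Arrays of the NNK group give a second reference for the LPS arrays that does not use the PBS arrays, though it shares the LPS arrays and differs by the carcinogen. All NNK arrays were also of the slide series of PBS arrays 1 and 3, and all LPS arrays of the other. Slide series and group therefore cannot be told apart in this comparison. Nor can a possible difference in age at killing, since the labelled courses of NNK and endotoxin differ in length. Against NNK, 597 items were called higher in LPS (2.73%) and 763 lower (3.49%). Jchain had means of 1.36 ± 1.25 in PBS, 6.33 ± 0.49 in LPS, 1.81 ± 0.25 in NNK and 5.81 ± 0.31 in LPS/NNK (SD, n = 3), and its LPS minus NNK difference was 4.52 ± 0.48 (adjusted p = 0.000169). C1qa had means of 0.94 ± 0.73 in PBS, 5.24 ± 0.36 in LPS, 2.33 ± 0.10 in NNK and 5.23 ± 0.59 in LPS/NNK, and differed by 2.91 ± 0.37 (adjusted p = 0.000572). Both genes were low in the groups without endotoxin and high in the groups with it. Cd177 behaved otherwise, with means of -3.05 ± 0.98 in PBS, 2.18 ± 0.82 in LPS, 1.34 ± 0.11 in NNK and 1.47 ± 1.10 in LPS/NNK, and did not pass against NNK (0.83 ± 0.57, adjusted p = 0.460). Ltf had means of 0.84 ± 1.91 in PBS, 5.74 ± 0.88 in LPS, 5.42 ± 0.95 in NNK and 5.05 ± 1.98 in LPS/NNK (0.31 ± 0.98, adjusted p = 0.910 against NNK). Xdh had means of 2.39 ± 0.38 in PBS, -1.65 ± 0.54 in LPS, -1.15 ± 0.23 in NNK and -1.99 ± 0.50 in LPS/NNK (-0.51 ± 0.33, adjusted p = 0.441). For Cd177 and Xdh the PBS arrays stood apart from the arrays of all 3 other groups, and for Ltf 1 LPS/NNK array fell below the highest PBS array. Arl6ip5 had means of 4.13 ± 0.15 in PBS, 0.86 ± 0.10 in LPS, 0.41 ± 0.14 in NNK and 0.76 ± 0.36 in LPS/NNK, again with PBS apart. Of the 12 rises 9 were called higher against NNK, all but Cd177, Ltf and H1f5, and of the 12 falls 2 were called lower, Bex4 (-2.47 ± 0.64, adjusted p = 0.0362) and Bex2 (-2.60 ± 0.61, adjusted p = 0.0214). Class II genes gave 9 rises and 0 falls against NNK (median 1.5), plasma cell genes 8 and 0 (1.35) and complement 11 and 0 (1.16). T cell markers gave 13 and 1 (1.16), and monocyte and macrophage markers 13 and 3 (1.10). Alveolar macrophage, Nrf2, respiratory chain and ribosomal lists gave 0 called members in either direction against NNK in limma, where 5 of their 128 genes, all of them alveolar macrophage markers, had an unadjusted p under 0.05.

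**Figure D5:**
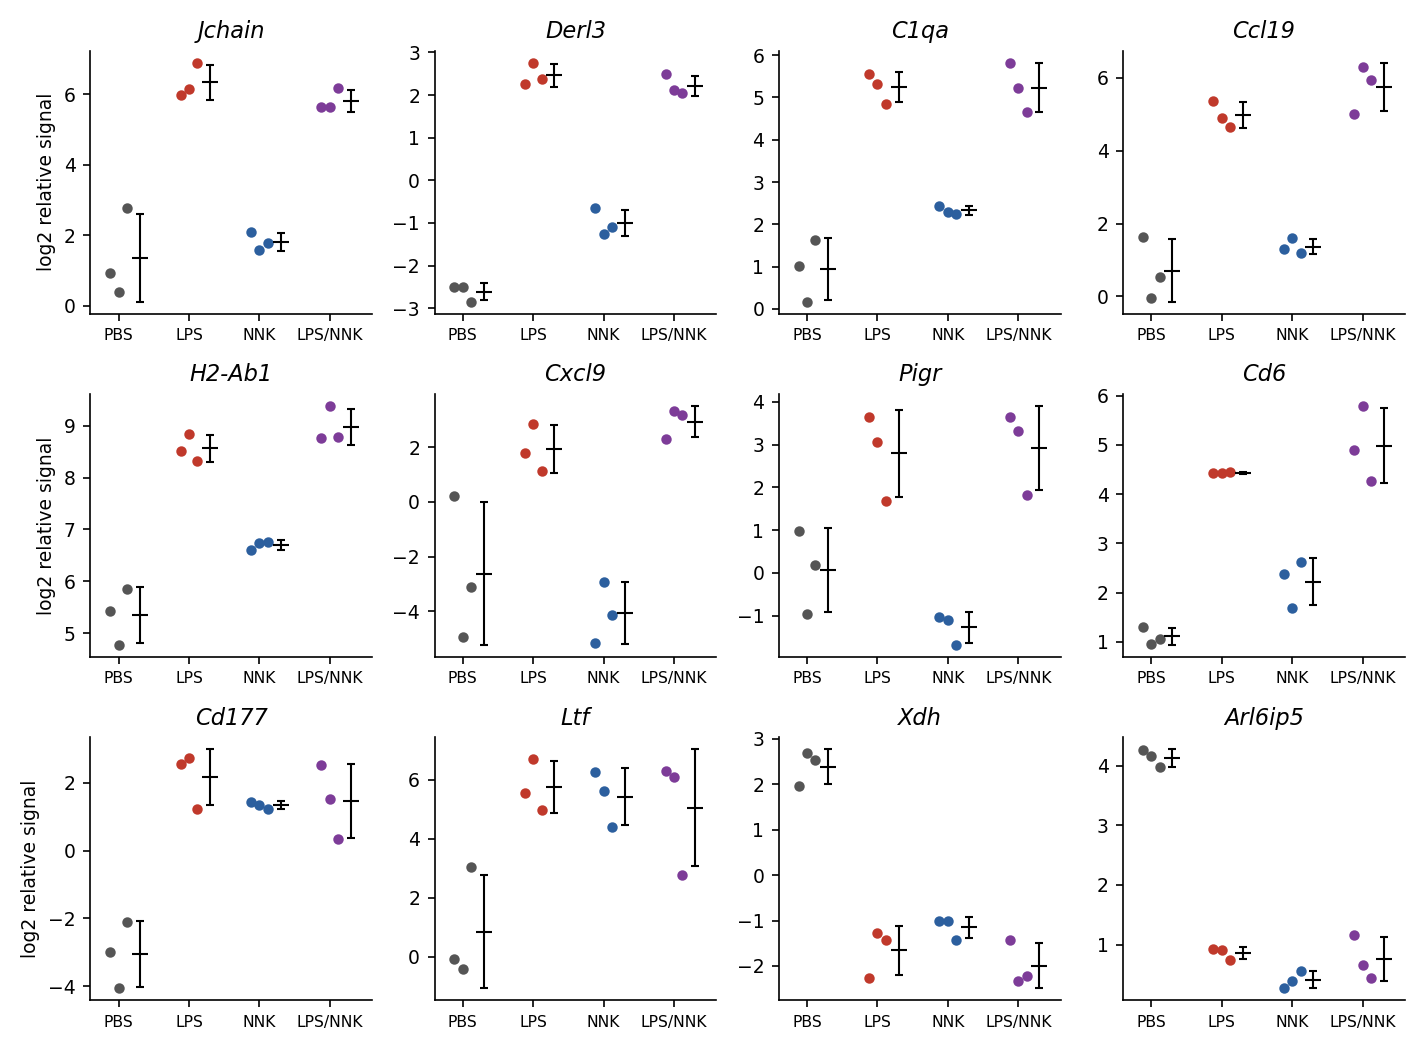
Log2 relative signal (vertical axes) of 12 genes in the 4 groups, 1 point per array, with the mean and SD of the 3 arrays as a bar beside them; the scale differs between panels. Jchain, Derl3, C1qa, Ccl19, H2-Ab1, Cxcl9, Pigr and Cd6 are higher in both groups given endotoxin than in both groups without it, while Cd177, Xdh and Arl6ip5 separate PBS from the 3 other groups and Ltf does so but for 1 LPS/NNK array.

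Whether the endotoxin difference itself changed with NNK was tested by the interaction term, LPS/NNK minus NNK minus the LPS minus PBS difference. It was called for 8464 items (38.7%), and this term rests on the PBS arrays as much as the main comparison does. For Jchain it was -0.98 (adjusted p = 0.262), for Ccl19 0.12 (adjusted p = 0.887) and for H2-Ab1 -0.94 (adjusted p = 0.0874), so that no difference was shown for these. For Cd177 it was -5.11 (adjusted p = 0.00144) and for the brightest Vapb probe 3.79 (adjusted p = 0.000315).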

How the data were processed

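One-colour Agilent arrays of mouse lung RNA were read in 12 samples, of which 3 PBS and 3 LPS arrays make the main comparison. The intensity values are the processed signals (gProcessedSignal) that Agilent Feature Extraction 10.7 wrote, per the file headers and the submitters' processing notes, with background already subtracted. The deposited series table holds log2 values made by the authors from the same arrays and was used as an alternative. Control spots and outlier spots were left out, spots of a probe were averaged, and log2 values were taken relative to the 75th percentile of each array. A probe was well above background on an array where at least 0.5 of its spots were, and a gene was read by its brightest probe. Bare accessions were named through RefSeq tables where they matched. The fit was limma 3.58.1 (lmFit and eBayes, R 4.3.3) on all 12 arrays with Benjamini-Hochberg adjustment over all items and a threshold of 0.05. The text names the 12 bright genes that rose and the 12 that fell most, up to 5 in each direction that were above background in 1 group only, up to 4 called members of each list, and all members of counts of 5 or fewer. A few genes that these rules name are not reported here. Other genes named were chosen after their values were seen. The members and lists were chosen with earlier results of these data known. Alternatives were other normalizations, background correction, filters, fits, the slide as a block and single arrays left out. The fit was tested on simulated data. Depth does not apply to arrays, whose number limits the precision.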

Additional observations from a re-analysis of the deposited data

Results flagged for a closer look

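For 31 genes with the largest changes, the endotoxin difference was compared between mice with and without NNK by the interaction term of the limma fit. The 22 below had an adjusted p under 0.05. A negative value means a smaller rise with NNK, a positive value a smaller fall or a change of the other sign. All values rest on the PBS arrays, which differed from every other group in signal and share of spots above background, and the part of this in the values was not tested.

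Among rises, the interaction was -5.11 for Cd177, -5.27 for Ltf, -2.81 for Oosp1, -2.53 for H1f5, -2.33 for Tspan10, -1.86 for Derl3, -1.71 for C1qb and -1.40 for C1qa. Derl3, C1qb, C1qa, Tspan10 and Oosp1 were still called higher with endotoxin in mice given NNK.

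Among bright falls it was 3.79 for the brightest Vapb probe, 3.62 for Arl6ip5, 3.22 for Dpt, 3.20 for Xdh, 2.97 for Zfp948, 2.86 for Slc6a14, 1.71 for Npr3, 1.53 for Clec1b and 1.42 for Rgs18. Among genes above background in PBS and on no LPS array it was 3.86 for Eml6, 3.85 for Sin3b, 3.6 for Kif12, 3.49 for Gria3 and 3.39 for Adamts4; these fitted values depend on signals below background.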

How the results depend on the processing

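Of 195 named genes 186 were called, and 113 of these kept their call under every alternative run for them. Normexp correction, chosen after the files were seen because they hold no mean signal, called 4120 items (2638 higher, 1482 lower), 3166 of them bright (2000 and 1166), and raised the share called higher from 46.5% to 64.0%; 40 named genes lost their call, Arg1, Sin3b, Adamts4, Kif12 and Gria3 among them. With no filter on dim probes 19478 items were called, 12983 higher, with 3630 bright ones lower. With probes above background on all 6 arrays, 3901 were lower, 1385 of them bright. With PBS array 2 alone as vehicle 7189 were called (3292 higher, 3897 lower), 3288 bright (2347 and 941). With PBS array 3 alone 5691 were called (2841 and 2850), 2627 bright (1927 and 700). Of bright items, 1330 were lower by at least 2-fold. Leaving out 1 array in turn gave 10212 to 11621 called items, 4716 to 5609 higher and 5496 to 6626 lower, with 4837 to 5681 bright. Array weights gave 14605 and the slide as a block 12217. In single-vehicle fits the lone array is assumed to vary like the other groups.

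After quantile and cyclic loess normalization respectively, the sign turned for Cst3 (-0.20 and -0.24), Cbr2 (-0.40 and -0.49), Hba-a1 (-0.34 and -0.34), Hbb-bt (-0.37 and -0.41), Sftpc (-0.42 and -0.67) and the medians of respiratory chain genes (-0.33 and -0.46), alveolar macrophage markers (-0.32 and -0.32), ribosomal proteins (-0.42 and -0.48) and red cell genes (-0.26 and -0.34). After cyclic loess alone it turned for Gprc5a (-0.089), Tuba1a (-0.0024) and the mucosal defence (-0.052) and Nrf2 (-0.028) medians. The red cell median was -0.13 with array weights and between -0.0087 (without LPS array 6) and 0.38 with 1 array left out. After normexp the mast cell and type 2 median was 0.11 and the thymus median 0.096. Xist, the 1 sex chromosome gene tested, differed by -1.02 against PBS array 3 alone, where the natural killer (-0.51), interferon gamma (-0.26), ciliated (-0.21) and immediate early (-0.027) medians were also below 0. The cause of these changes was not tested. No paired analysis was possible because the LPS and PBS arrays share only replicate number 1.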
